A study of Mus musculus with 8 samples.

Results

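Messenger RNA of 31 genes of the p53 and DNA damage response was followed in tdTomato-positive mouse brain cells of the embryo and of the postnatal day 12 pup. The genes were chosen by symbol, and all 31 were found among the 53507 gene rows of the count files. They comprise p53 itself (Trp53), its relative Trp73, the p53 inhibitors Mdm2 and Mdm4, and 21 genes listed as p53 targets. The others are the checkpoint kinases Atm, Atr, Chek1 and Chek2 and the recombination genes Brca1 and Brca2. Whether p53 controls each of the 21 in these mouse cells was not tested.

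RNA sequencing covered 8 libraries in 4 groups of 2: embryonic day 13 (E13) and embryonic day 15 (E15), both labelled wt, and postnatal day 12 (P12) after normoxia or after hypoxia. All were made from brain cells positive for the red fluorescent protein tdTomato, which the labels call progenitor cells, and each library started from 400 pg of total RNA. Hypoxic pups lived in 10 ± 0.5% oxygen for 8 days, from P3 to P11, while normoxic pups stayed in normal air, and control and hypoxic mothers were swapped during the exposure. The labels name no strain, sex, promoter or Cre line behind the reporter, give no treatment for the embryos other than wt, and do not say whether the 2 libraries of a group came from separate animals. P-values therefore measure the spread between libraries, which may be technical.

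The p53 protein is a transcription factor that is held low in unstressed cells, because Mdm2 binds it and marks it for destruction and Mdm4 blocks its activity. DNA breaks activate the kinases ATM and ATR and, behind them, CHK2 and CHK1, which free p53 from its inhibitors. p53 then switches on genes that stop the cell cycle, repair DNA or start cell death, and it also switches on Mdm2, its own inhibitor. In the developing brain, loss of Mdm2 or of several repair genes leads to p53-dependent death of progenitors. Much of this control acts on proteins, which mRNA levels do not show.

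Total counts were 36252027 to 47084796 per library. At least 10 counts were found for 17520 to 18318 genes in the embryonic libraries, for 14129 and 16468 in the normoxic ones and for 12785 and 11695 in the hypoxic ones. Markers of neural progenitors were all detected, 10 of 10 in every library, at a summed 599 to 638 CPM (counts per mega-count of the TMM-scaled library size) at E13, 351 to 433 at E15, 1706 to 2101 in normoxia and 2228 to 2841 in hypoxia. Markers of astrocytes, 4 or 5 of 8 detected in the embryo and 8 of 8 at P12, summed to 19.99 to 45.7 CPM and 11163 to 13705 CPM respectively. Markers of neurons, 10 of 10 detected in the embryo and in normoxia and 4 of 10 in hypoxia, summed to 2672 to 3112 CPM in the embryo, 569 to 619 in normoxia and 267 to 687 in hypoxia. Oligodendrocyte lineage markers rose from 13.1 to 38.3 CPM in the embryo to 562 to 698 in normoxia (7 of 10 genes called) and 1689 to 3273 in hypoxia (8 of 10 called). Blood markers, 6 of 6 detected at E13 and 5 of 6 at E15, summed to 2238 and 7296 CPM in the E13 libraries and 20.1 and 85.5 in the E15 libraries, and at P12 they did not exceed 4.31. Markers of microglia, 0 to 5 of 8 detected, summed to at most 88.1 CPM in any library, and those of endothelial and mural cells, 2 to 6 of 8 detected, to 5.63 to 14.5 CPM in the embryo and 1022 to 2523 CPM at P12. Rgs5, a gene of mural cells, made up 1021 to 2501 CPM of the latter, while Cldn5, Pecam1, Cdh5 and Vtn had 0 counts in all P12 libraries. Pdgfrb, of the same list, was at 21.9 and 72.0 CPM in normoxia and 34.5 and 0.629 in hypoxia, and at most 2.37 in the embryo. Flt1 and Kdr did not exceed 2.35 CPM at P12. The part of this changing mixture in the results below was not tested, and in bulk RNA fewer cells of a type and less RNA per cell cannot be told apart.

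Like the libraries as a whole, the p53 genes were steadier between embryonic libraries than between P12 libraries. Across all tested genes the 2 libraries of a group correlated at r = 0.946 at E13, 0.955 at E15, 0.771 in normoxia and 0.696 in hypoxia. At least 10 counts were present for 28 of the 31 genes in all 4 embryonic libraries, for 19 in both normoxic libraries and for 10 in both hypoxic libraries, where the shares over all tested genes were 77.0%, 64.9% and 49.5%. The 10 genes with such counts in all 8 libraries (43.2% of all tested genes) were Mdm2, Mdm4, Cdkn1a, Gadd45b, Sesn1, Bax, Trp53inp1, Polk, Atr and Chek1. The median difference between the 2 libraries of a group, in log2(CPM + 1), was 0.27 at E13, 0.19 at E15, 1.08 in normoxia and 3.003 in hypoxia. Over all 19936 tested genes it was 0.19, 0.17, 0.67 and 0.63. These genes were not matched for level. At most 10 counts in both hypoxic libraries, which keeps the difference small, were found for 29.0% of them and for 7 of the 31 genes. In hypoxia 16 of the 31 genes differed by more than 3 between the 2 libraries, against 19.4% of all tested genes, and in normoxia 7 did, against 11.1%. No p53 gene differed by that much at E13 or at E15. By more than 1, 4 of the 31 differed at E13 (Trp73, Sesn2, Perp and Phlda3), against 4.49% of all tested genes. At E15 3 did (Perp, Ddb2 and Brca2), against 3.16%.

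Several genes were present in 1 hypoxic library and all but absent from the other. With over 100 counts in 1 library and at most 3 in the other, there were 10 such genes in hypoxia (9.73% of all tested genes): Trp53, Gadd45a, Pmaip1, Perp, Aen, Phlda3, Eda2r, Ddb2, Atm and Brca2. In normoxia there were 4 (7.16% of all tested genes): Fas, Xpc, Chek2 and Brca1. Which hypoxic library held the RNA varied from gene to gene, with Gadd45a, Pmaip1, Aen, Phlda3, Ddb2 and Atm in replicate 1 and Trp53, Perp, Eda2r and Brca2 in replicate 2. In the plot of both libraries of each group these 10 genes are among the long lines of the hypoxia panel, beside Sesn1, Trp53inp1, Zmat3, Polk, Atr and Brca1.

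**Figure D1:**
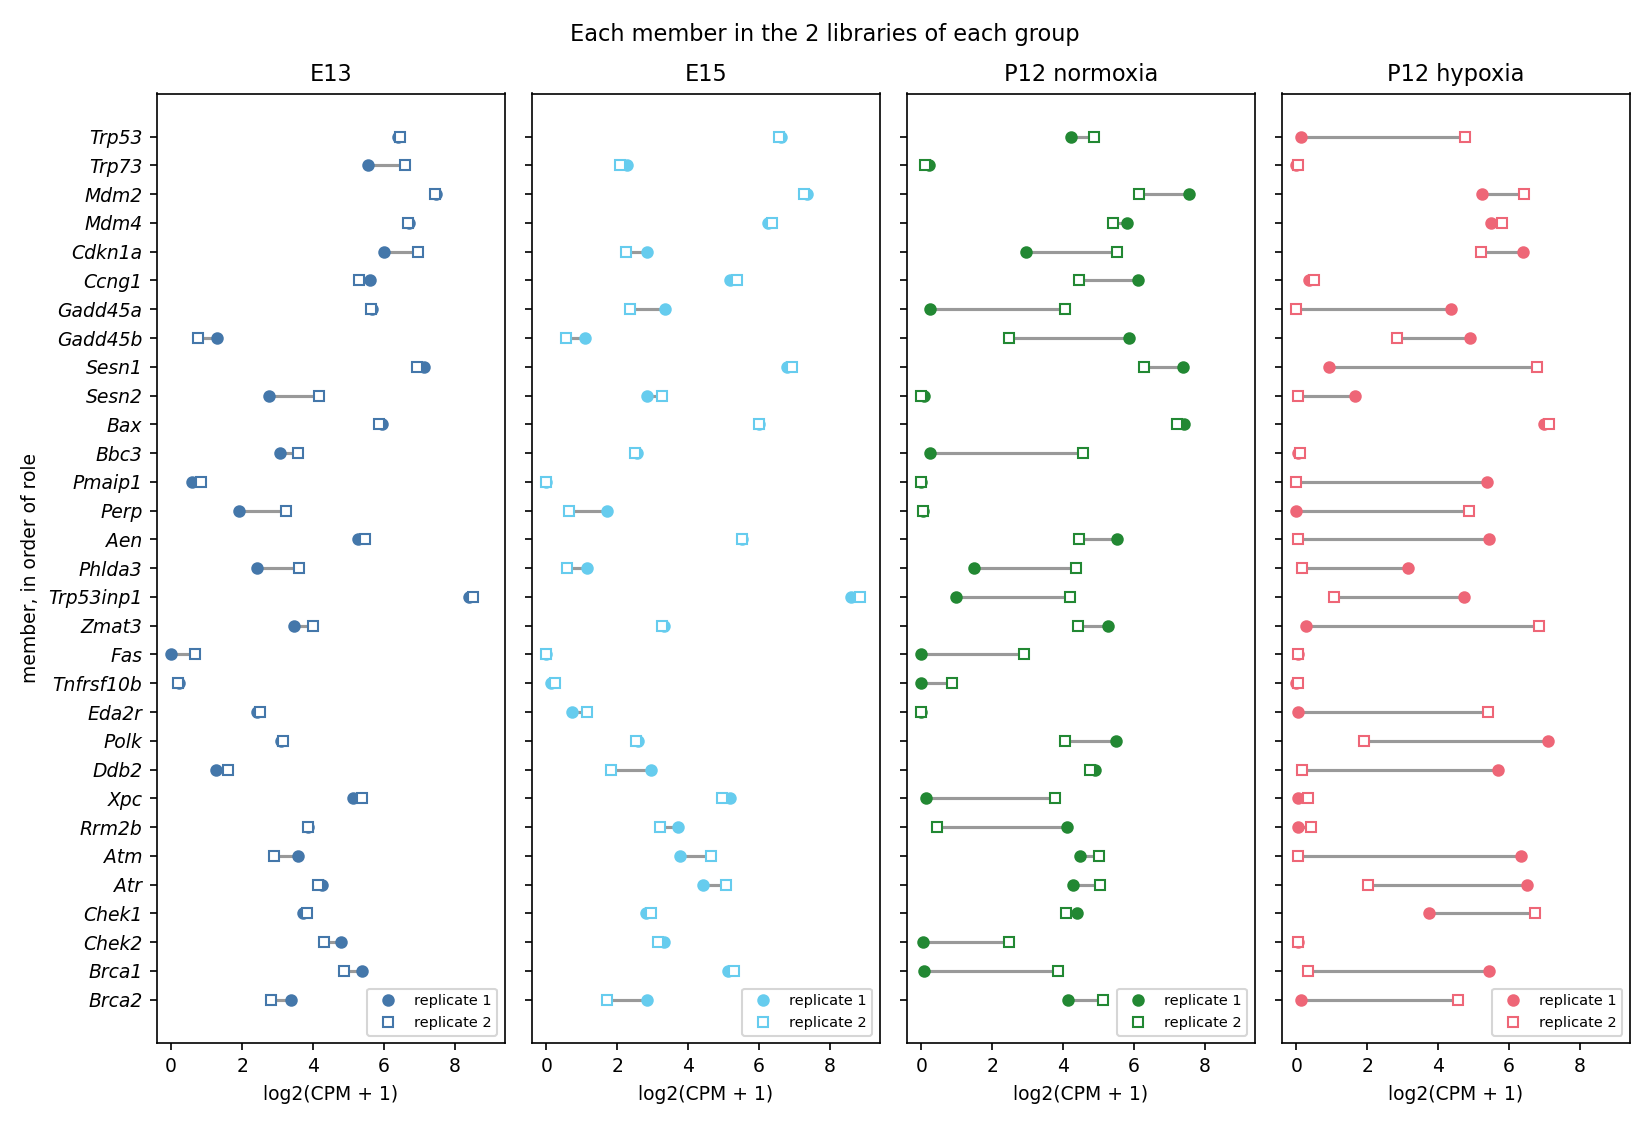
Level of each of the 31 genes in the 2 libraries of each group, with log2(CPM + 1) on the x axis and the genes in order of role on the y axis. Filled circles are replicate 1, open squares replicate 2, and the grey line joins them; the lines are short at E13 and E15 and longer in many genes at P12, with 16 genes over 3 apart in hypoxia.

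In the comparison with normoxia, 5 genes lay above both normoxic libraries in hypoxic replicate 1 and below both in hypoxic replicate 2, namely Gadd45a, Polk, Ddb2, Atm and Atr. The share over all tested genes was 10.7%. Perp, Zmat3 and Chek1 showed the opposite arrangement, against 8.52% of all tested genes. For these 8 genes the 2 hypoxic libraries give opposite answers to the question whether hypoxia raised or lowered the gene.

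**Figure D2:**
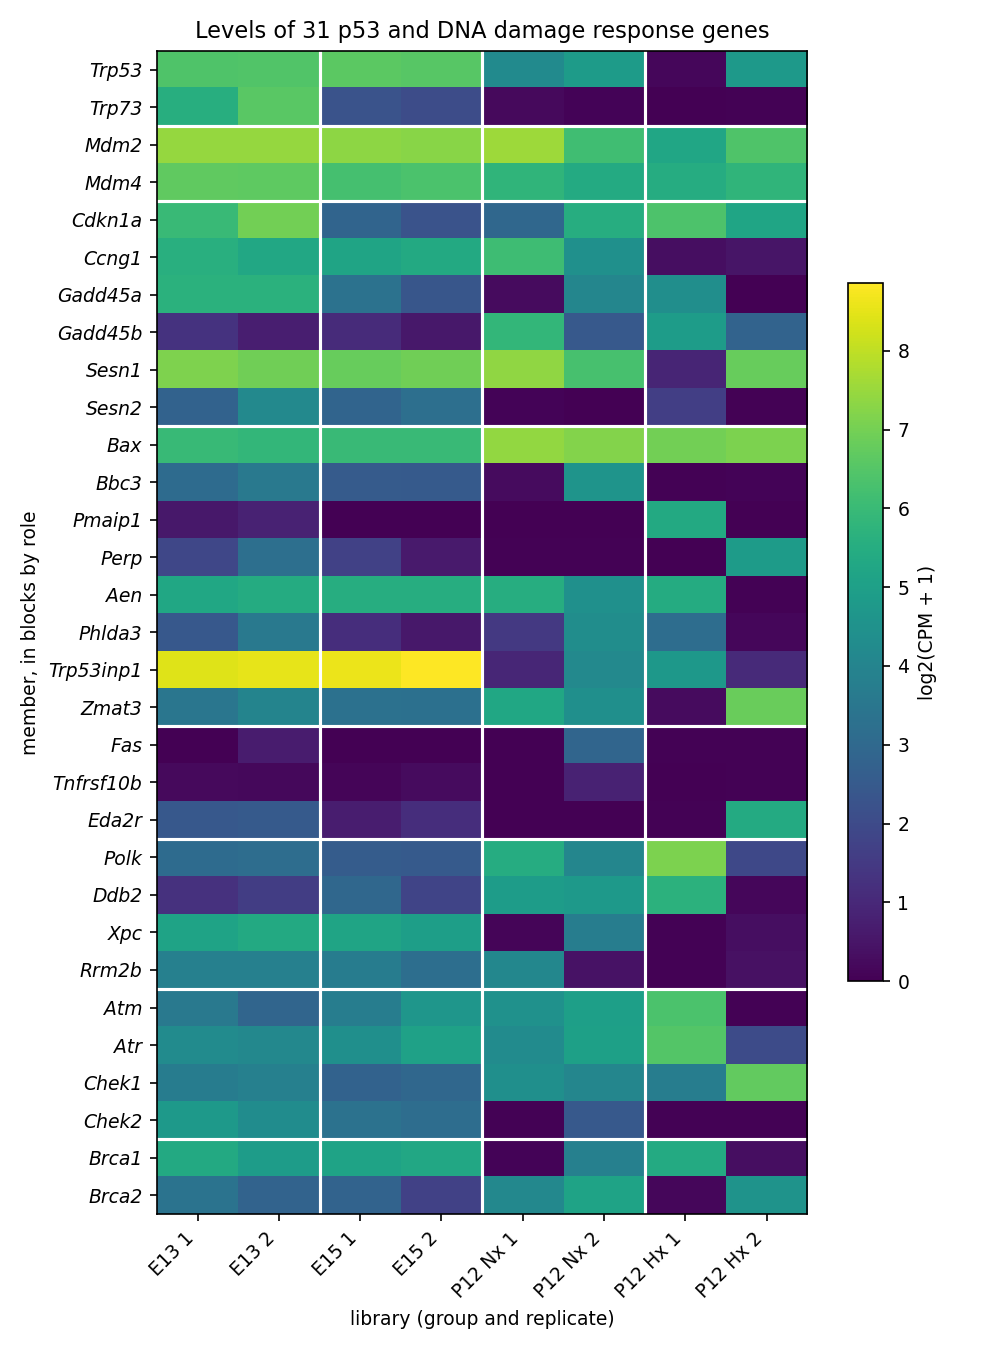
Heat map of log2(CPM + 1) for the 31 genes (rows, in order of role) in the 8 libraries (columns, by group and replicate). The embryonic columns look alike within each stage, whereas the P12 columns differ from each other within a group, as for Trp53 at 0.101 and 26.0 CPM in hypoxia.

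Trp53 lies on chromosome 11 (GRCm38, 69580359 to 69591873, plus strand). It stood at 84.0 and 86.7 CPM at E13 and 97.1 and 92.7 CPM at E15. It stood at 17.8 and 28.0 CPM in normoxia and 0.101 and 26.0 CPM in hypoxia. Every P12 library was below every embryonic library, and of the hypoxic libraries replicate 2 was within the normoxic range while replicate 1 held 3 counts. The log2 fold change of Trp53 was -1.97 (SE 1.64) in normoxia and -2.79 (SE 1.72) in hypoxia against the embryonic mean, and neither passed (edgeR quasi-likelihood test, adjusted p = 0.44 and 0.27). A processed copy listed as Trp53-ps held counts equal to 12.1% to 13.6% of those of Trp53 in the embryo. The share was 4.28% and 6.74% in normoxia and 7.69% in hypoxic replicate 2, and hypoxic replicate 1 held 1 count of the copy. Reads shared between the gene and this copy cannot be resolved.

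Trp73, which encodes the p53 relative p73, was mostly a gene of the E13 libraries. It was at 45.9 and 95.9 CPM at E13 and at 3.84 and 3.20 CPM at E15. At P12 it was close to the limit of detection, at 0.159 and 0.0652 CPM in normoxia and 0 and 0.037 CPM in hypoxia, the last being 1 count in all. In the mouse forebrain p73 is best known from Cajal-Retzius neurons, early-born cells at the cortical surface that secrete reelin, and other genes of these cells were therefore read after Trp73 had been seen. Reln, which encodes reelin, was at 58.8 and 76.2 CPM at E13, 36.3 and 18.1 at E15, 0.127 and 16.6 in normoxia and 0 and 0.074 in hypoxia. Lhx1, a transcription factor of these neurons, was at 10.9 and 30.4 CPM at E13, 0.317 and 1.08 at E15 and 0 in all P12 libraries. Ebf3, another such factor, was at 4.90 and 14.2 CPM at E13 and 1.44 and 0.418 at E15. Trp73, Reln, Lhx1 and Ebf3 were each higher in E13 replicate 2 than in replicate 1, and the part of these cells in the level of Trp73 was not tested.

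Both p53 inhibitors were detected in all 8 libraries. Mdm2, the ubiquitin ligase, was at 176 and 173 CPM at E13, 161 and 154 at E15, 186 and 69.9 in normoxia and 36.9 and 84.9 in hypoxia. The P12 groups overlapped, since hypoxic replicate 2 was above normoxic replicate 2. Mdm4 was at 103 and 101 CPM at E13, 75.6 and 81.1 at E15, 54.5 and 41.5 in normoxia and 43.5 and 55.0 in hypoxia. Both E15 libraries were below both E13 libraries, and all P12 libraries were below those.

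Among the genes of growth arrest, Cdkn1a encodes p21, the inhibitor of cyclin-dependent kinases that carries out much of the arrest by p53. Cdkn1a was at 62.7 and 124 CPM at E13 and 6.24 and 3.78 CPM at E15, so the stages were far apart. At P12 it spread from 6.80 to 45.01 CPM in normoxia and from 35.9 to 82.3 CPM in hypoxia, and these groups overlapped. Gadd45a, a stress sensor that binds p21 and PCNA, shared the step within the embryo, with 49.9 and 48.9 CPM at E13 and 9.16 and 4.18 at E15. It then stood at 0.191 and 15.5 CPM in normoxia and 19.6 and 0 CPM in hypoxia. Its exons overlap for 19.1% of their length with a transcript on the opposite strand, E230016M11Rik, and the files do not say whether strand was used in counting. Gadd45b, a relative that is also an immediate response gene in neurons, ran the other way, from 0.482 to 1.43 CPM over the 4 embryonic libraries to 57.5 and 4.60 in normoxia and 28.9 and 6.14 in hypoxia. All 4 P12 libraries were above all 4 embryonic ones.

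Ccng1 encodes cyclin G1, a p53 target that recruits a phosphatase to Mdm2. It was at 47.3 and 38.6 CPM at E13, 35.3 and 40.5 at E15 and 68.1 and 20.8 in normoxia. In hypoxia it was at 0.269 and 0.407 CPM, which is 19 counts in both libraries together against 2781 in normoxia. It was the one gene of the arrest group in which both hypoxic libraries lay far below every other library. Sesn1, a stress-induced sestrin that restrains mTORC1, was at 109 to 140 CPM in the embryo, 166 and 76.6 in normoxia and 0.875 and 110 in hypoxia. Sesn2, its relative, was at 5.83 to 17.0 CPM in the embryo, 0.0635 and 0 in normoxia and 2.15 and 0.037 in hypoxia.

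**Figure D3:**
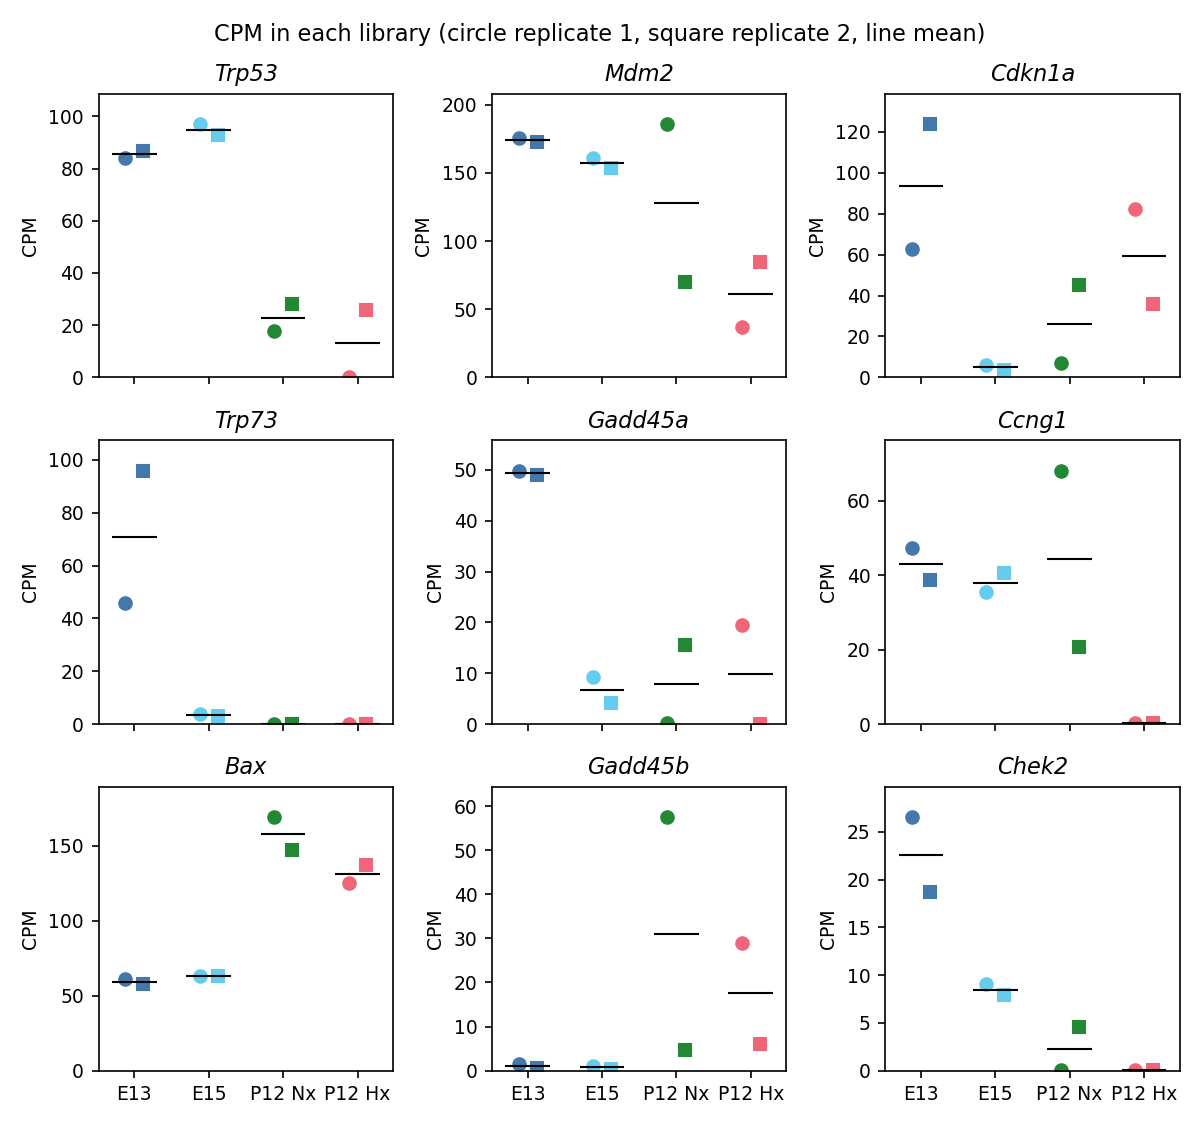
Levels of the genes on which the results turn, with CPM on a linear y axis and the 4 groups on the x axis (Nx, normoxia; Hx, hypoxia). Circles are replicate 1, squares replicate 2 and lines the mean of the 2; Bax is higher at P12 (125 to 169 CPM) than in the embryo (57.6 to 63.1 CPM), and Ccng1 is below 0.5 CPM in hypoxia.

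Of the cell death genes, Bax was the one that was both abundant and alike in all replicates. Bax encodes the pore-forming protein that opens the outer mitochondrial membrane, and it lies on chromosome 7 (GRCm38, 45461697 to 45466898, minus strand). It was at 61.2 and 57.6 CPM at E13, 62.9 and 63.1 at E15, 169 and 147 in normoxia and 125 and 137 in hypoxia. All P12 libraries were above all embryonic ones, and both hypoxic libraries were below both normoxic ones. Per kilobase of annotated exon, mean Bax levels were 37.7 CPM at E13, 40.0 at E15, 100.4 in normoxia and 83.4 in hypoxia. On that scale Bax was second of the 31 genes in the embryo, behind Trp53inp1, and ranked above the other 30 in both P12 groups. Gm45808, a gene on the same strand, shares 12.2% of the exon length of Bax.

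Trp53inp1, which encodes a p53-induced nuclear protein that promotes p53 activity and autophagy, was the reverse of Bax. It was at 339 and 365 CPM at E13 and 387 and 462 at E15, but at 0.953 and 17.1 in normoxia and 25.2 and 1.07 in hypoxia. Every P12 library was more than 10-fold below the lowest embryonic one. The BH3-only activators of cell death were sparse and uneven. Bbc3, which encodes PUMA, was at 7.46 and 10.96 CPM at E13, 4.84 and 4.68 at E15, 0.191 and 22.8 in normoxia and 0.0336 and 0.074 in hypoxia. Pmaip1, which encodes NOXA, was at 0.501 and 0.802 CPM at E13 and at 40.6 CPM in hypoxic replicate 1, and had 0 counts in the other 5 libraries.

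The other targets tied to cell death varied between P12 libraries in the same way. Aen, a p53-induced exonuclease, held between 37.5 and 45.1 CPM in all embryonic libraries, then 45.1 and 20.8 in normoxia and 42.1 and 0.037 in hypoxia. Zmat3, a p53 target that binds RNA, was at 8.57 to 14.9 CPM in the embryo, 37.6 and 20.5 in normoxia and 0.202 and 113 in hypoxia. Phlda3, an inhibitor of AKT, was at 4.40 and 11.1 CPM at E13, 1.23 and 0.498 at E15, 1.78 and 19.4 in normoxia and 7.90 and 0.111 in hypoxia. Perp, a membrane protein, was at 0.547 to 8.45 CPM in the embryo, below 0.05 CPM in both normoxic libraries, and at 0 and 28.1 in hypoxia. For Aen and Phlda3 the hypoxic RNA was in replicate 1, and for Zmat3 and Perp it was in replicate 2.

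Death receptors of the TNF receptor family were low or absent. Fas was at 0 and 0.606 CPM at E13, 0 in both E15 libraries, 0 and 6.39 in normoxia and 0.0336 and 0.037 in hypoxia. Tnfrsf10b, the receptor for TRAIL, did not exceed 0.815 CPM in any library. Eda2r, a receptor for the ectodysplasin form EDA-A2, was at 4.40 and 4.67 CPM at E13, 0.652 and 1.22 at E15, 0 in both normoxic libraries and 0.0336 and 41.2 in hypoxia. Against a floor of 3 counts per library the hypoxic mean of Eda2r was at least 213-fold higher than normoxia, and all but 1 of the hypoxic counts were in replicate 2. The corresponding bound for Pmaip1 was at least 210-fold, with all of its hypoxic counts in replicate 1.

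The repair genes listed as p53 targets were uneven between P12 libraries. Polk encodes an error-prone polymerase that passes damaged bases, and was at 4.74 to 7.88 CPM in the embryo, 43.9 and 15.7 in normoxia and 135 and 2.77 in hypoxia. Ddb2, which recognises ultraviolet damage, was at 1.40 to 6.73 CPM in the embryo, 29.0 and 26.1 in normoxia and 50.2 and 0.111 in hypoxia; its exons overlap those of Acp2 on the opposite strand for 23.8% of their length. Xpc, the damage sensor of nucleotide excision repair, was at 29.9 to 41.1 CPM in the embryo, 0.0953 and 12.5 in normoxia and 0.0336 and 0.259 in hypoxia. Rrm2b, the p53-induced subunit of ribonucleotide reductase, was at 8.23 to 13.6 CPM in the embryo, 16.3 and 0.358 in normoxia and 0.0336 and 0.333 in hypoxia. Xpc and Rrm2b had 8 and 10 counts in both hypoxic libraries together.

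The upstream kinases were present in the embryo at moderate levels. Atm was at 10.98 and 6.47 CPM at E13, 12.6 and 23.9 at E15, 21.1 and 31.1 in normoxia and 80.4 and 0.037 in hypoxia. Atr was at 18.1 and 16.6 CPM at E13, 20.5 and 32.7 at E15, 18.3 and 32.0 in normoxia and 89.5 and 3.07 in hypoxia. For both kinases the E15 libraries lay above the E13 libraries. Chek1, which acts in S phase, was at 12.1 and 13.3 CPM at E13, 5.97 and 6.70 at E15, 20.1 and 15.9 in normoxia and 12.5 and 104 in hypoxia. Chek2 was at 26.5 and 18.7 CPM at E13, 9.05 and 7.89 at E15, 0.0318 and 4.60 in normoxia and 0.0336 and 0.037 in hypoxia, the last being 1 count in each library. Chek1 and Chek2 were both lower at E15 than at E13, the reverse of Atm and Atr. Of the recombination genes, Brca1 was at 28.6 to 41.1 CPM in the embryo, 0.0635 and 13.4 in normoxia and 41.7 and 0.259 in hypoxia. Brca2 was at 2.30 to 9.32 CPM in the embryo, 16.5 and 34.1 in normoxia and 0.101 and 22.6 in hypoxia.

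Promoter sequence is shown for 4 of these genes. Ccng1 and Bax are among those called below, and Cdkn1a and Gadd45a shared the step between E13 and E15. RefSeq gave 31 windows of 250 bases before the start for 23 of the 31 genes (GRCm38.p6), out of 32851 windows in all. The decamer to which p53 binds, searched by its consensus on both strands, occurred in 29.03% of the windows of these genes and in 7.13% of all windows. The 9 genes with a match were Trp53, Mdm2, Cdkn1a, Ccng1, Gadd45a, Sesn1, Bax, Aen and Polk. Trp73, Gadd45b and Chek2, which were also called below, had windows without a match and are not shown. Capitals mark the decamer, and every window ends 1 base before the RefSeq start, at chr17:29090729-29090978 (plus strand) for Cdkn1a, chr11:40755287-40755536 (minus) for Ccng1, chr7:45466899-45467148 (minus) for Bax and chr6:67037408-67037657 (minus) for Gadd45a.
Cdkn1a: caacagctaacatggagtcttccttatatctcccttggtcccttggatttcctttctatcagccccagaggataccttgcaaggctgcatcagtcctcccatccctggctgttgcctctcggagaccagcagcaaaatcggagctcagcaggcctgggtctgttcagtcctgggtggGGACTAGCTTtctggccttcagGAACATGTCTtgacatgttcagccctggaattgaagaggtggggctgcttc
Ccng1: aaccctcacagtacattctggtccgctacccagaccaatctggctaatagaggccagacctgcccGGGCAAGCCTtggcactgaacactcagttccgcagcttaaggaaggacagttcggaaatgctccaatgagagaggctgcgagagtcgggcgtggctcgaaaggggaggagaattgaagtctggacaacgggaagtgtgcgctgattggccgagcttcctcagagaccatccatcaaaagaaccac
Bax: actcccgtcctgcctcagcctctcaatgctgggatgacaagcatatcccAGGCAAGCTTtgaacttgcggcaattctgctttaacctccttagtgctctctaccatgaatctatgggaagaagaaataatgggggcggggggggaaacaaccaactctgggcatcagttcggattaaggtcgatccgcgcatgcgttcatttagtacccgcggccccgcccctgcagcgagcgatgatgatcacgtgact
Gadd45a: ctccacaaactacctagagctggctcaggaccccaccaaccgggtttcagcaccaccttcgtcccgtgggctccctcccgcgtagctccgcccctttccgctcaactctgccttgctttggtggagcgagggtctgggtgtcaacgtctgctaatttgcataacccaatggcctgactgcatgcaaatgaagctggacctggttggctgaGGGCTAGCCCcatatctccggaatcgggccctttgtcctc
RefSeq lists another start of Cdkn1a, whose window (chr17:29093519-29093768) did not hold the decamer. Counted from the start, the decamers lay at -73 to -64 and -51 to -42 in Cdkn1a, -185 to -176 in Ccng1, -201 to -192 in Bax and -40 to -31 in Gadd45a. p53 binds DNA as a tetramer on a pair of such decamers, and known p53 elements often lie outside a window of this length. The 4 genes were picked with the course of their RNA known. Bax was higher at P12 than in the embryo, Ccng1 was near 0 in hypoxia alone, and Cdkn1a and Gadd45a were lower at E15. That these courses differ follows from the choice, and the part of the decamer in them was not tested.

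Other promoter letters were counted in the same windows, on both strands. CCAAT, the NF-Y box, was in 48.39% of the windows of these genes and 33.85% of all windows, and GGGCGG, an Sp1 box, in 61.29% and 32.74%. The letters of the cell cycle homology region, TTTGAA or TTCGAA, were in 9.68% and 3.23% of the windows of these genes and in 15.99% and 1.34% of all. Any of the E2F words TTTCCCGC, TTTCGCGC, TTTGCCGC and TTTGGCGC was in 6.45% of the windows of these genes, those of Chek2 and Brca2, and in 1.86% of all. The windows of these genes were richer in G and C, with a median of 58.4% against 52.4%, and the part of base composition in these shares was not tested. A match is a description of the letters and not evidence of binding.

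Hypoxic and normoxic P12 cells were compared to see whether the p53 programme differed after chronic low oxygen. Ccng1 was the 1 gene of 31 that passed, and it fell by 7.03 on the log2 scale (SE 0.92, n = 2 libraries per group, edgeR quasi-likelihood test, adjusted p = 0.0254). Over all tested genes 2.82% passed as lower and 0.196% as higher, 3.02% in all, so 1 lower call among 31 genes is near the background. The ratio of Ccng1 was 134 (95% counting interval 85.4 to 222, which covers counting error only). Trp53 had a log2 fold change of -0.81 (SE 1.72, adjusted p = 0.93), Mdm2 of -1.07 (SE 0.59, adjusted p = 0.41) and Cdkn1a of 1.19 (SE 0.99, adjusted p = 0.63) in the same edgeR test. These standard errors mean that changes of several-fold in Trp53 or Cdkn1a would not have been seen. At an unadjusted p under 0.05, 2 of the 31 genes were higher and 5 lower, against 4.73% and 13.5% of all tested genes. The groups did not overlap for 1 higher gene, Eda2r, and 5 lower ones, against 13.1% and 20.1% of all tested genes. For Eda2r this rested on 1 count in hypoxic replicate 1 against 0 in both normoxic libraries. The median log2 fold change was -0.27 over the 31 genes and 0 over all.

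The log2 fold change of Ccng1 ran from -7.64 to -5.70 over 16 alternatives, but its call was not kept in all of them. Its adjusted p was 0.341 in edgeR on the 4 P12 libraries alone, 0.389 in limma-voom, and 0.151 to 0.157 when any 1 of the 4 embryonic libraries (both of E13, both of E15) was left out. DESeq2 called 9 of the 31 genes and 3981 over all genes. On the P12 libraries alone DESeq2 called 1 of the 31, Ccng1, and 1363 over all genes. The log2 fold change of Ccng1 was -6.67 without hypoxic replicate 1, -7.39 without hypoxic replicate 2 and -5.70 without normoxic replicate 1. Trp53 was called lower without hypoxic replicate 2, with a log2 fold change of -7.75, and had one of 0.29 without hypoxic replicate 1. Of the 10 neuron markers 4 were called lower in hypoxia and 0 higher, 3 had positive fold changes, and their summed level in hypoxic replicate 2 (687 CPM) was above both normoxic libraries. Proliferation genes had 10 of 12 positive fold changes with 0 called in edgeR (1 at an unadjusted p under 0.05), at a summed 728 to 836 CPM in normoxia and 1216 to 1688 in hypoxia.

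E15 was compared with E13 to follow the response over embryonic age, within libraries that agreed closely. In edgeR's quasi-likelihood test 0 of the 31 genes passed, as did 0% of all 19936 tested genes. At an unadjusted p under 0.05, 2 of the 31 genes were lower and 0 higher, against 2.19% and 1.27% of all tested genes. The 2 were Trp73, with a log2 fold change of -4.33 (SE 1.10), and Cdkn1a, with one of -4.22 (SE 1.11), both at an adjusted p of 1 in edgeR; Trp73 was named after its values were seen. DESeq2 called 3 genes lower (Trp73, Cdkn1a and Pmaip1), limma-voom 2 (Trp73 and Cdkn1a) and edgeR on the 4 embryonic libraries alone 1 (Trp73). Over all genes, in either direction, these fits called 373, 935 and 229 in that order. DESeq2 on the embryonic libraries alone called 9 lower, namely Trp73, Cdkn1a, Mdm4, Gadd45a, Pmaip1, Phlda3, Eda2r, Chek1 and Chek2. That fit called 2288 over all genes in either direction. The shared fit takes its spread from the P12 libraries too, whose replicates differed more.

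Without a test, the E15 libraries lay below the E13 libraries for 15 of the 31 genes and above them for 7, against 25.8% and 23.6% of all tested genes. Fold changes were negative for 23 genes and positive for 8, against 9999 and 9544 of all 19936 tested genes. The median log2 fold change was -0.42 over the 31 genes and -0.0015 over all. All 6 arrest genes had negative fold changes, but the stages overlapped for 4 of them. The 2 without overlap were Cdkn1a and Gadd45a. Trp53 and Mdm2 moved little, with log2 fold changes of 0.15 (SE 1.71) and -0.15 (SE 0.59). Proliferation genes, 12 of 12 with negative fold changes and 0 called in edgeR (4 at an unadjusted p under 0.05), summed to 1991 to 2173 CPM at E13 and 701 to 787 CPM at E15, and blood markers fell over the same step by the amounts given above. Neither was tested for its part in these levels.

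Normoxic P12 cells and hypoxic P12 cells were each compared with the embryonic mean, taken over both stages with equal weight. The 2 comparisons share the 4 embryonic libraries, so their values are given side by side only. Bax rose in both, by 1.37 on the log2 scale in normoxia (SE 0.24, edgeR adjusted p = 0.0167) and by 1.10 in hypoxia (SE 0.24, adjusted p = 0.0250). Gadd45b also rose in both, by 5.07 (SE 1.22, edgeR adjusted p = 0.0402) and by 4.25 (SE 1.18, adjusted p = 0.0467). Trp73 fell in both, by 7.10 in normoxia (SE 1.25, edgeR adjusted p = 0.0163) and, on 1 count, by a ratio of 2057 in hypoxia (95% counting interval 369 to 81247, edgeR adjusted p = 0.0073). Ccng1 and Chek2 fell in hypoxia, Ccng1 by 6.89 (SE 0.90, edgeR adjusted p = 0.0046) and Chek2, on 2 counts, by a ratio of 435 (120 to 3592, edgeR adjusted p = 0.0438). The TMM factors were 1.32 to 1.38 in the embryonic libraries and 0.639 to 0.848 in the P12 libraries. On unscaled totals the rises of Bax and Gadd45b would therefore be smaller and the falls larger, and no such fit was run.

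In normoxia 2 of the 31 genes were thus called higher and 1 lower, where 12.1% and 5.68% of all tested genes were (17.8% in all). In hypoxia 2 were called higher and 3 lower, where 13.2% and 12.9% of all tested genes were (26.1% in all). Such small counts are near the background and are no result about the 31 genes. At an unadjusted p under 0.05, 2 genes were higher and 5 lower in normoxia, against 19.8% and 13.8% of all tested genes. The counts in hypoxia were 5 higher and 9 lower, against 19.4% and 21.6% of all tested genes. Groups did not overlap for 7 higher and 10 lower genes in normoxia (27.3% and 32.1% of all tested genes) and for 2 higher and 12 lower genes in hypoxia (21.3% and 36.3%). The median log2 fold change was -0.017 over the 31 genes and -0.040 over all tested genes in normoxia, and -0.76 and -0.43 in hypoxia. With RLE in place of TMM scaling the median of all genes in hypoxia was -0.22, a shift of 0.208, and the log2 fold change of Bax 1.32. Mdm2 had log2 fold changes of -0.37 (SE 0.52, edgeR adjusted p = 0.66) in normoxia and -1.44 (SE 0.55, adjusted p = 0.10) in hypoxia. Cdkn1a had 0.26 (SE 0.84, edgeR adjusted p = 0.86) and 1.45 (SE 0.81, adjusted p = 0.23). Astrocyte markers were called higher in both comparisons, 8 of 8, and the part of the change in cell types in these results was not tested.

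**Figure D4:**
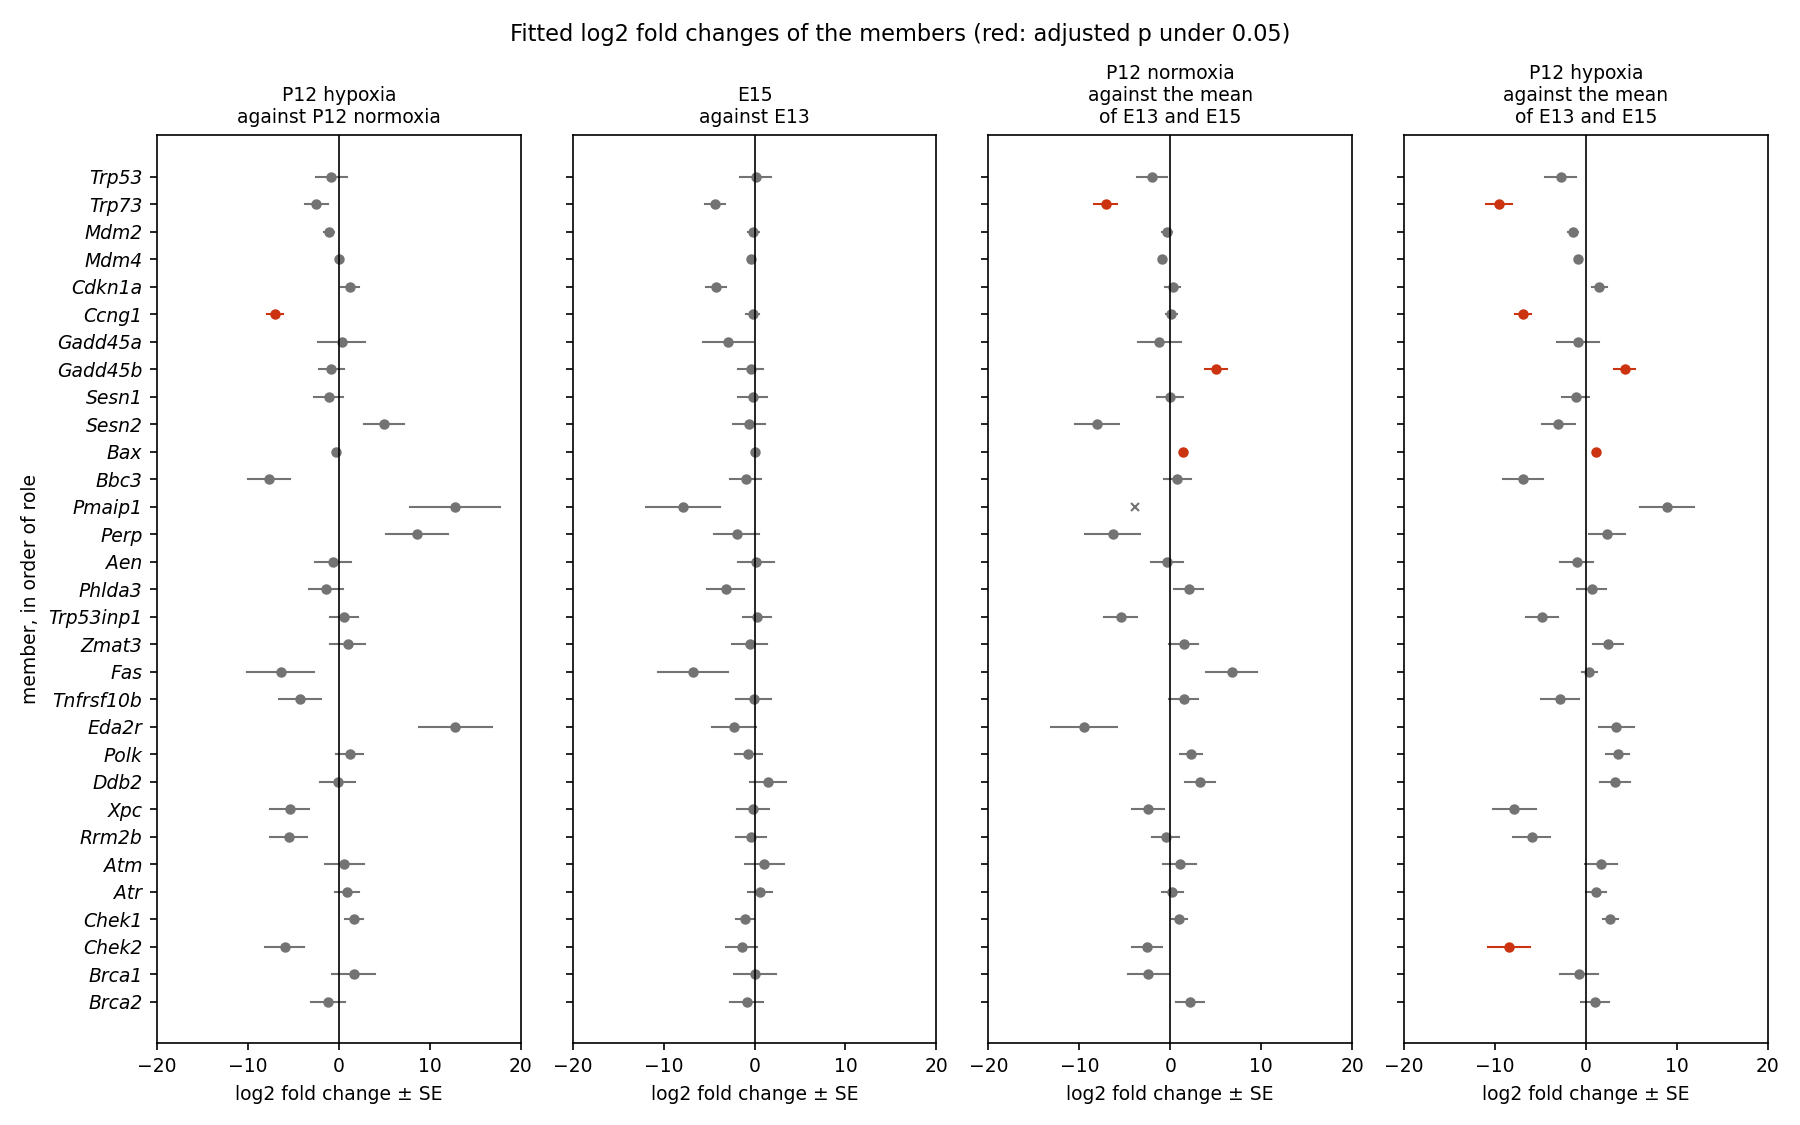
Log2 fold changes of the 31 genes (y axis, in order of role) in the 4 comparisons (panels), with 1 SE from the edgeR fit as the horizontal bar and calls at an adjusted p under 0.05 in red. A cross marks Pmaip1 in normoxia against the embryo, which has 0 counts in normoxia and no usable SE, and fitted values of genes at 0 in a group are no bound; the bars are wide next to most fold changes, and the 9 calls fall on Ccng1, Trp73, Bax, Gadd45b and Chek2.

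The direction of these calls was the same in all 16 alternatives, but their side of the threshold was not. For Bax the log2 fold change ran from 1.13 to 1.47 in normoxia and from 1.02 to 1.39 in hypoxia over 16 alternatives, with the highest adjusted p at 0.129 and 0.144, both without E15 replicate 1. Bax missed the threshold in both comparisons when any 1 of the 4 embryonic libraries was left out, without normoxic replicate 1 in normoxia, and with no low-count filter in both (edgeR adjusted p = 0.0596 and 0.0814). Gadd45b missed it without any 1 of the embryonic libraries in both comparisons, and depended on replicate 1 at P12, with a log2 fold change of 2.18 without normoxic replicate 1 and 2.74 without hypoxic replicate 1. Ccng1 in hypoxia against the embryo passed without any 1 library and missed the threshold in limma-voom (adjusted p = 0.0526). Trp73 missed it in normoxia without any 1 of the embryonic or normoxic libraries (adjusted p = 0.0568 to 0.101) and in hypoxia without E13 replicate 2 (0.0502). Chek2 missed it without any 1 of the embryonic or hypoxic libraries (edgeR adjusted p = 0.126 to 0.131) and with no low-count filter (0.0558). In limma-voom the calls of Trp73 (adjusted p = 0.214 and 0.335), Gadd45b (0.0593 and 0.151) and Chek2 (0.204) were also lost, and that of Bax was kept in both comparisons (0.00478 and 0.0486). Gadd45b was lost as well with no low-count filter (0.0559 and 0.0677).

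Other genes of the pathway were read from 7 lists, of which 128 genes passed the filter on low counts. Calls in hypoxia against normoxia are to be read beside 0.196% higher and 2.82% lower over all tested genes. In hypoxia against normoxia 1 of 23 other p53 targets was called: Fdxr, a mitochondrial reductase that p53 induces, was at 13.3 and 8.90 CPM in normoxia and 0.101 and 0.074 in hypoxia. Fdxr fell by 6.94 on the log2 scale (SE 0.90, edgeR adjusted p = 0.0249). Of 22 recombination and Fanconi anaemia genes 1 was called higher and 1 lower, the latter being Fancd2, which had 26.8 and 20.1 CPM in normoxia and 0 and 0.037 in hypoxia (edgeR adjusted p = 0.0329). The gene called higher was Fancb, below the level set for naming and named after its values were seen, which had 0 counts in normoxia and 1.85 and 1.18 CPM in hypoxia (edgeR adjusted p = 0.0449), against 3.19 to 4.56 CPM in the embryo. The other 5 lists, 18 p53 regulators, 21 damage sensors, 8 end joining genes, 20 excision repair genes and 16 genes of the Bcl2 family and caspases, held 0 genes called by edgeR. Their genes at an unadjusted p under 0.05 numbered 3, 4, 1, 3 and 3 in that order. Of these 2, 2, 1, 1 and 1 were higher and 1, 2, 0, 2 and 2 lower. Over all tested genes 4.73% were higher and 13.5% lower at that level. In E15 against E13, edgeR called 0 genes of the 7 lists, and 3 had an unadjusted p under 0.05. These were 1 each among the other p53 targets, the damage sensors and the recombination genes, all lower. At that level 2.19% of all tested genes were lower and 1.27% higher. The list medians of the log2 fold change there ran from -0.74 for recombination genes to 0.25 for end joining genes. At P12, Fdxr and Fancd2 share with Ccng1 a level in both hypoxic libraries that is far below that in every other library.

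Against the embryo, calls in the lists are to be read beside the shares of all tested genes, 12.1% higher and 5.68% lower in normoxia and 13.2% and 12.9% in hypoxia. Of the 23 other p53 targets 5 were called higher and 2 lower in normoxia, and 6 higher and 4 lower in hypoxia. Btg2, an antiproliferative p53 target that is also a marker of neurogenic division, was at 88.5 to 317 CPM in the embryo and 4521 to 6557 CPM at P12, rising by 5.03 in normoxia (SE 0.23, edgeR adjusted p = 0.000292) and 4.81 in hypoxia (SE 0.23, adjusted p = 0.000266). Pidd1, a death domain protein, was at 8.89 to 47.7 CPM in the embryo, 0 in both normoxic libraries and 0.135 and 0.148 in hypoxia, called lower in both. Polh, the polymerase of ultraviolet damage, was at 5.27 to 9.82 CPM in the embryo and 35.9 to 112 CPM at P12, and rose by 3.08 in normoxia (SE 0.49, edgeR adjusted p = 0.0119) and 3.81 in hypoxia (SE 0.50, adjusted p = 0.0048).

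Of the 16 genes of the Bcl2 family and caspases 3 were called higher and 2 lower in normoxia, and 3 higher and 1 lower in hypoxia. Bcl2l1, which encodes the survival protein BCL-XL, was at 102 to 126 CPM in the embryo, 4345 and 2707 in normoxia and 2083 and 2831 in hypoxia, a rise of 4.93 (SE 0.24, edgeR adjusted p = 0.00032) and 4.41 (SE 0.23, adjusted p = 0.000334). It rose beside Bax, which it opposes. Bmf, a BH3-only activator, was at 6.59 to 17.8 CPM in the embryo and at most 0.0326 CPM at P12, and was called lower in both.

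Among the 18 regulators of p53, 2 were called higher in both comparisons and 0 lower. These were the acetyltransferases Crebbp, at 105 to 122 CPM in the embryo and 360 to 686 CPM at P12, and Kat5, at 34.0 to 40.2 CPM in the embryo and 118 to 240 CPM at P12. Among the 21 damage sensors 0 were called in normoxia and 2 lower in hypoxia, the ubiquitin ligases Rnf8 and Rnf168. Rnf8 was at 19.7 to 22.1 CPM in the embryo, 13.7 and 16.2 in normoxia and 0.168 and 1.11 in hypoxia. Rnf168 was at 6.73 to 19.9 CPM in the embryo and low in both P12 groups, at 0.0318 and 0.587 in normoxia and 0.168 and 0.148 in hypoxia. Of the 8 end joining genes Xrcc4, the partner of DNA ligase IV, was called higher in both comparisons, at 6.18 to 7.72 CPM in the embryo and 46.9 to 122 CPM at P12, and Xrcc5 was called lower in normoxia. Of the 22 recombination and Fanconi anaemia genes 2 were called higher and 2 lower in normoxia, and 1 higher and 6 lower in hypoxia. Bard1, the partner of Brca1, was at 0.229 to 3.27 CPM in the embryo, 60.1 and 63.6 in normoxia and 82.6 and 107 in hypoxia, and rose by 6.35 (SE 0.51, edgeR adjusted p = 0.00107) and 6.97 (SE 0.52, adjusted p = 0.000787). Brca1 itself was close to the limit of detection in 1 library of each P12 group. Of the 20 excision repair genes 2 were called higher and 1 lower in normoxia, and 1 higher and 2 lower in hypoxia.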

How the data were processed

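Raw counts for each gene row were deposited, with 1 file per library, for 2 libraries in each of 4 groups, grouped and numbered by the sample titles; the P12 files in part carry other numbers than the titles. Per the submitters' processing notes, cutadapt, STAR and Subread were used with the GRCm38 build; versions, settings, annotation release, use of strand and treatment of multiply mapping reads are not given in the sources used here. Each file had 55487 rows. The 1980 rows that named no gene held 0.205% to 0.266% of the counts and were left out, and 14 rows bearing dates in place of symbols were kept but not named. Coordinates and exon lengths came from GENCODE M21, which holds 51695 of the 53507 symbols, and promoters from RefSeq. The files hold 0 rows for tdTomato.

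Counts were fitted with edgeR 4.0.16 (R 4.3.3): filterByExpr (minimum count 10, minimum total 15) kept 19936 genes, all 31 described genes among them, of which Fas, Pmaip1 and Tnfrsf10b passed through few libraries. A quasi-likelihood fit of 4 groups over all 8 libraries (TMM scaling, 4 residual degrees of freedom) gave two-sided p-values, with Benjamini-Hochberg adjustment across the 19936 genes and a threshold of 0.05. The SE was computed from the F statistic. CPM are counts per mega-count of the TMM-scaled library size, on which 3 counts, the limit a count of 0 allows, are 0.0482 to 0.111 CPM. Limits and 95% intervals (exact binomial) cover counting error only: the reads carry no molecular identifiers, so they are not independent molecules. "Called" means past the threshold.

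The 31 genes and the lists were chosen with earlier results of these data known. Fold changes are given for called genes and for Trp53, Mdm2 and Cdkn1a in each comparison. From the lists, at most 2 called genes of smallest p per list, direction and comparison with at least 10 CPM are named. Not every gene so chosen is reported here. Trp73 in E15 against E13 was added after its values were seen. Alternatives were RLE scaling, no low-count filter, at least 5 CPM in 2 libraries, DESeq2 1.42.0, limma-voom (limma 3.58.1) with sample weights, a replicate block, only the compared groups, and leaving out each library, where a group of 1 library borrows the spread of the others. DESeq2 on only the compared groups was added once the data had been seen. Python 3.11.15, pandas 2.3.3 and matplotlib 3.10.9 were used for summaries and figures.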

Additional observations from a re-analysis of the deposited data

How the results depend on the processing

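How many of the 31 genes were called depended on the tool and the libraries. The number called over all genes moved too, and the counts below are to be read beside it. In hypoxia against normoxia it was 602 in the main fit, 3981 in DESeq2 and 0 in limma-voom. For E15 against E13 it was 0, 373 and 935 in that order. For normoxia against the embryo it was 3541, 7252 and 3587, and 9524 in DESeq2 on only the compared groups. In that comparison it was 2363 with no low-count filter and 6731 in edgeR on only the compared groups. In hypoxia against normoxia the count of 1 became 9 in DESeq2, 0 in limma-voom, 0 with the replicate block and 0 on only the compared groups, and it ran from 0 to 7 without 1 library. In E15 against E13 the count of 0 became 3 in DESeq2, 2 in limma-voom, 1 with the compared groups alone and 9 in DESeq2 with those alone. Over all genes the last 2 of these fits called 229 and 2288. In normoxia against the embryo the count of 3 became 1 with no low-count filter, 9 in DESeq2, 1 in limma-voom, 12 with the compared groups alone and 15 in DESeq2 with those alone. It ran from 0 to 11 without 1 library, 0 being found without any 1 of the embryonic libraries or normoxic replicate 1, 5 without normoxic replicate 2, 11 without hypoxic replicate 1 and 10 without hypoxic replicate 2. In hypoxia against the embryo the main fit called 5 of the 31 genes and 5208 over all genes. The count became 2 with no low-count filter, 12 in DESeq2, 1 in limma-voom and 3 with the replicate block. It was 8 on only the compared groups and 13 in DESeq2 on only those groups. The numbers over all genes in these alternatives are not given here, so their counts are no result about the 31 genes. It ran from 1 to 14 without 1 library, with 1 or 2 without any 1 embryonic library, 8 without either normoxic library, 13 without hypoxic replicate 1 and 14 without hypoxic replicate 2. The cause of these differences was not tested.

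With the replicate block the calls of Ccng1 in hypoxia against normoxia (edgeR adjusted p = 0.0961), Bax against the embryo in normoxia and hypoxia (0.0532 and 0.0646) and Chek2 in hypoxia against the embryo (0.0834) were lost. Replicate numbers, taken from titles with which the P12 files in part disagree, name no pair in the labels, and deviations from the group means did not go together between libraries of equal number (r = -0.0385 to 0.00829 over 6 pairs of groups, across genes). Of 352 single-gene values under an alternative, 279 kept direction and side of the threshold, 53 fell short of it, 15 newly passed and 5 changed sign. The 5 were Trp53 in hypoxia against normoxia without hypoxic replicate 1 (0.29), Mdm2 there without normoxic replicate 1 (0.048), Mdm2 in normoxia against the embryo without normoxic replicate 2 (0.17), and Cdkn1a in that comparison in limma-voom (-0.26) and without normoxic replicate 2 (-1.67), all log2 fold changes. Over the fits without 1 library these ran from -7.75 to 0.29, -1.83 to 0.048, -1.38 to 0.17 and, for Cdkn1a, -1.67 to 0.92. Depth limits genes below about 10 counts, such as Tnfrsf10b in 6 of the 8 libraries and Fas in 6.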
